A study of Rattus norvegicus with 24 samples.

Results

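Cardiac fibroblasts from rats aged 20 months were compared with cardiac fibroblasts from newborn rats aged 0-3 days, both kept in medium with 5.5 mM glucose. The comparison was set by the labels: the 3 libraries of the older age in this medium against the 3 of the younger, 6 of the 24 libraries in the series. The series holds 8 groups of 3 libraries: 0-3 days, 3-4 weeks, 10-13 weeks and 20 months, each at 5.5 mM glucose and at 33 mM glucose. In every group the cells were primary cultures in DMEM with fetal bovine serum and antibiotics, plated in multi-well dishes and held at the stated glucose level for 24 hours before total RNA was taken. No group carries an altered allele or a drug. Strain, sex, passage number, the way fibroblasts were purified and the number of animals behind a culture are not given in the labels, and nothing says that the 3 libraries of a group came from separate animals, so the p-values below measure the spread between libraries, which may be technical.

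Cardiac fibroblasts are the connective tissue cells of the heart. They lay down and turn over the collagens, elastic fibres and glycoproteins between the muscle cells. Around birth they still divide and build new matrix, in the adult heart they are mostly quiescent, and after injury they turn into contractile myofibroblasts. Fibroblasts also sense viral and misplaced self DNA or RNA. The sensors signal through adaptor proteins to interferon regulatory factors, secreted interferon then acts through its receptor, the JAK kinases and the STAT proteins, and these switch on a large set of antiviral genes.

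The 6 libraries held between 19474178 and 24654286 gene counts, and the 24 libraries between 18874548 and 24654286. Of 30957 genes in the table, 13806 passed a filter on low counts and were tested. Levels are counts per 1e6 counts, scaled for library composition (CPM). A change is the log2 ratio of 20 months over 0-3 days, and a gene was called, or said to have risen or fallen, at an adjusted p under 0.05 (edgeR's quasi-likelihood test over all 24 libraries with Benjamini-Hochberg adjustment over all tested genes). CPM is not divided by gene length, so levels are compared between ages and not between genes.

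The old and newborn cultures differed in most of the genes tested. Of the 13806 genes tested, 7438 (53.9%) were called, 3606 (26.1%) higher and 3832 (27.8%) lower at 20 months. Changes over 2-fold were found for 991 genes (7.18%) higher and 1770 genes (12.8%) lower. The CPM values of the age groups did not overlap for 8677 genes (62.8%). The median change over all tested genes was -0.0038, so counts of members below are read against these shares. A list with shares near these says no more than the tested genes as a whole. Gene lists were described by how many of their tested members were called. A member that passed the filter only through the age at which it is high had to differ. Members that did not pass do not enter these counts.

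**Figure D1:**
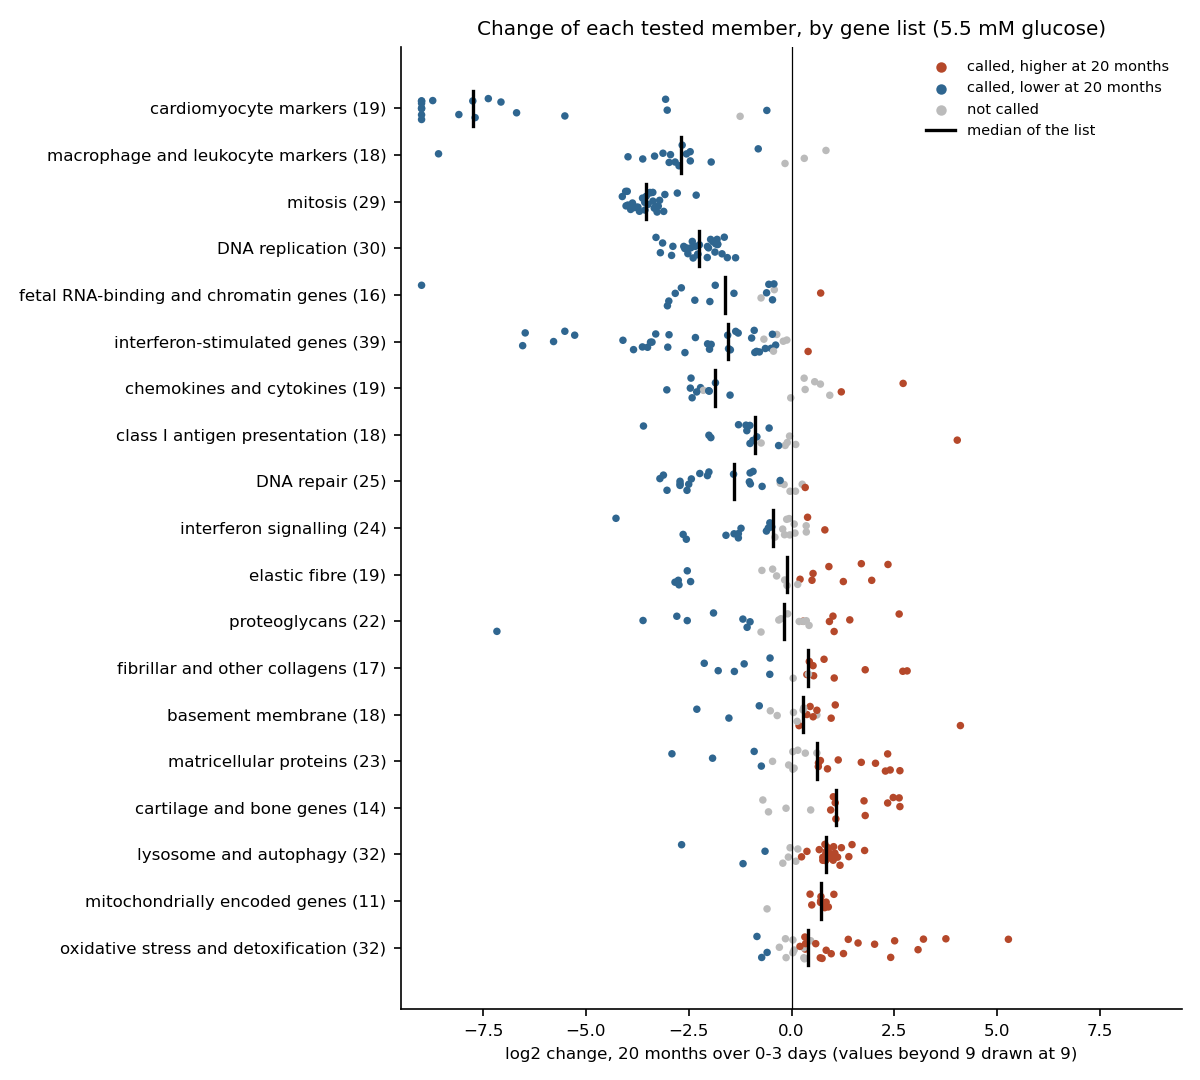
Log2 change of every tested member of 19 gene lists at 20 months over 0-3 days in 5.5 mM glucose (number tested in parentheses). Each point is a gene, coloured by its call, and the black bar is the median of the list. All tested members of the mitosis and DNA replication lists lie left of 0, and most members of the lysosome list lie to its right.

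The cultures differed in genes of other cell types, and these values stand beside everything that follows. In bulk samples, fewer cells of a type and less RNA per cell cannot be told apart. The heart muscle list had 19 members in the table and 19 past the filter; 18 fell and none rose. Myh6, the alpha myosin heavy chain of heart muscle, had 0, 0 and 0 CPM at 20 months, against 453, 487 and 474 CPM at 0-3 days, and was at least 10111-fold lower at 20 months by a floor of 3 counts over the group. Actc1, cardiac alpha actin, was 33754-fold lower (95% counting interval 6058 to 1333300) at 20 months, with a single count in the 20-month libraries. Nppa, the atrial natriuretic peptide, averaged 0.0775 ± 0.0265 CPM at 20 months and 416 ± 47.04 CPM at 0-3 days (SD, n = 3 each). The muscle genes Myl3, a myosin light chain, and Ryr2, the calcium release channel, had no count at 20 months and were at least 1207-fold lower and at least 678-fold lower. Tnnc1, cardiac troponin C, averaged 0.624 ± 0.293 CPM at 20 months and 65.9 ± 4.703 CPM at 0-3 days, and Casq2, the calcium store protein calsequestrin, averaged 0.398 ± 0.112 CPM at 20 months and 54.8 ± 3.695 CPM at 0-3 days. Myh7, the beta myosin heavy chain, was 10687-fold lower (95% counting interval 1918 to 422140). The median change of the list was -7.75, and -7.07 with the 7 members that had no count at 20 months set to their bound. Summed over the list, the level was 494, 586 and 567 CPM at 20 months, against 3171, 3199 and 3004 CPM at 0-3 days, and 579, 667 and 697 CPM at 3-4 weeks and 638, 698 and 644 CPM at 10-13 weeks, so newborn cultures stood apart from all later ages. The sum includes Nppb, which was not called, and Atp2a2, which fell by 0.6 on the log2 scale. It therefore fell less than the median member did.

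Macrophage genes fell as well. Of the list's 18 members, all 18 passed the filter, 15 fell and none rose, with a median change of -2.699. Cd68, a lysosomal protein of phagocytes, had 9.696, 8.87 and 5.74 CPM at 20 months, against 61.8, 63.2 and 47.8 CPM at 0-3 days. Itgam, an integrin chain of myeloid cells, averaged 4.89 ± 1.78 CPM at 20 months and 49.04 ± 6.39 CPM at 0-3 days. Mpeg1, Laptm5 and Mrc1, the mannose receptor, had log2 changes of -3.62, -2.98 and -2.94. Cd74, the invariant chain of class II presentation, was not called, with 8.86, 7.77 and 4.405 CPM at 20 months, against 4.703, 3.82 and 3.19 CPM at 0-3 days, but was called higher with the 6 libraries alone and without the 20-month library numbered 3 (adjusted p = 0.0272 and 0.0387). The summed level was 228, 133 and 103 CPM at 20 months, against 932, 933 and 720.5 CPM at 0-3 days, and 1020.1, 406 and 367 CPM at 3-4 weeks and 104, 111 and 173 CPM at 10-13 weeks. The 3-4 week library numbered 1 lay far above the other two of its group, while the sums at 10-13 weeks and 20 months overlapped.

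Most tested markers of vessels fell and those of other lineages were mixed. Of 11 endothelial members, 10 passed and 7 fell. Cdh5, the cadherin of endothelial junctions, averaged 0.158 ± 0.154 CPM at 20 months and 5.39 ± 1.65 CPM at 0-3 days (log2 change -5.06, and -6.16 without the 20-month library numbered 2), and Tie1, an endothelial receptor, 1.02 ± 0.249 CPM at 20 months and 9.31 ± 2.51 CPM at 0-3 days. Among 10 smooth muscle and pericyte markers 7 fell. The largest fall was that of the intermediate filament gene Des, with 0.814 ± 0.308 CPM at 20 months and 85.2 ± 16.5 CPM at 0-3 days. Its log2 change was -6.69, near that of Tnnc1 in the heart muscle list (-6.69), and the part of muscle cells in it was not tested. Myh11, the myosin of smooth muscle, was not called at 56.6 ± 14.1 CPM at 20 months and 49.1 ± 9.38 CPM at 0-3 days. Cspg4 and Notch3 were not called either. Of 6 tested Schwann and glial markers 3 rose and 2 fell. S100b had 12.6, 12.1 and 21.03 CPM at 20 months, against 1.24, 0.581 and 0.821 CPM at 0-3 days, and Mbp, myelin basic protein, 48.5, 52.8 and 55.3 CPM at 20 months, against 12.8, 10.7 and 11.2 CPM at 0-3 days. The lineage factor Sox10 had no count at 20 months and averaged 0.482 CPM at 0-3 days. No lymphocyte or erythroid marker passed the filter.

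Fibroblast markers were abundant at both ages, but the lineage markers Pdgfra and Tcf21 were lower at 20 months. The 15 fibroblast markers summed to 38274, 36297 and 36007 CPM at 20 months, against 32506, 32084 and 34583 CPM at 0-3 days. Of 14 tested, 4 rose and 4 fell. Col1a1 and Col3a1 made up most of the sum. Col1a2 was listed at 0 in all 24 libraries, which is not read as absence of expression. Col1a1, the main chain of type I collagen, was not called, at 20734, 19609 and 19422 CPM at 20 months, against 18288, 19035 and 20806 CPM at 0-3 days. Thy1, a surface glycoprotein of fibroblast subsets, had 453, 493 and 334 CPM at 20 months, against 68.5, 61.7 and 67.9 CPM at 0-3 days. Thy1 changed by 2.69 ± 0.14 on the log2 scale (SE, adjusted p = 2.58e-11). Pdgfra and Tcf21 went the other way, while 6 of the 14 tested fibroblast markers were not called. Pdgfra, a growth factor receptor of resident fibroblasts, had 67.8, 76.2 and 51.6 CPM at 20 months, against 219, 203 and 139 CPM at 0-3 days. Pdgfra changed by -1.52 ± 0.32 on the log2 scale (SE, adjusted p = 0.000635). Tcf21, a transcription factor of the epicardial fibroblast lineage, had 13.5, 14.4 and 14.3 CPM at 20 months, against 46.6, 34.3 and 32.3 CPM at 0-3 days. Tcf21 changed by -1.42 ± 0.33 on the log2 scale (SE, adjusted p = 0.00138). The age groups of Thy1, Pdgfra and Tcf21 did not overlap. The small collagen-binding proteoglycans Dcn and Lum fell too, at 399.6 against 1489 CPM and 29.99 against 207 CPM (20 months against 0-3 days); the log2 change of Dcn was -1.898, and -2.56 without the 20-month library numbered 2. Gsn, an actin-severing protein, and Vim, the intermediate filament of mesenchyme, rose by log2 changes of 0.49 and 0.48.

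**Figure D2:**
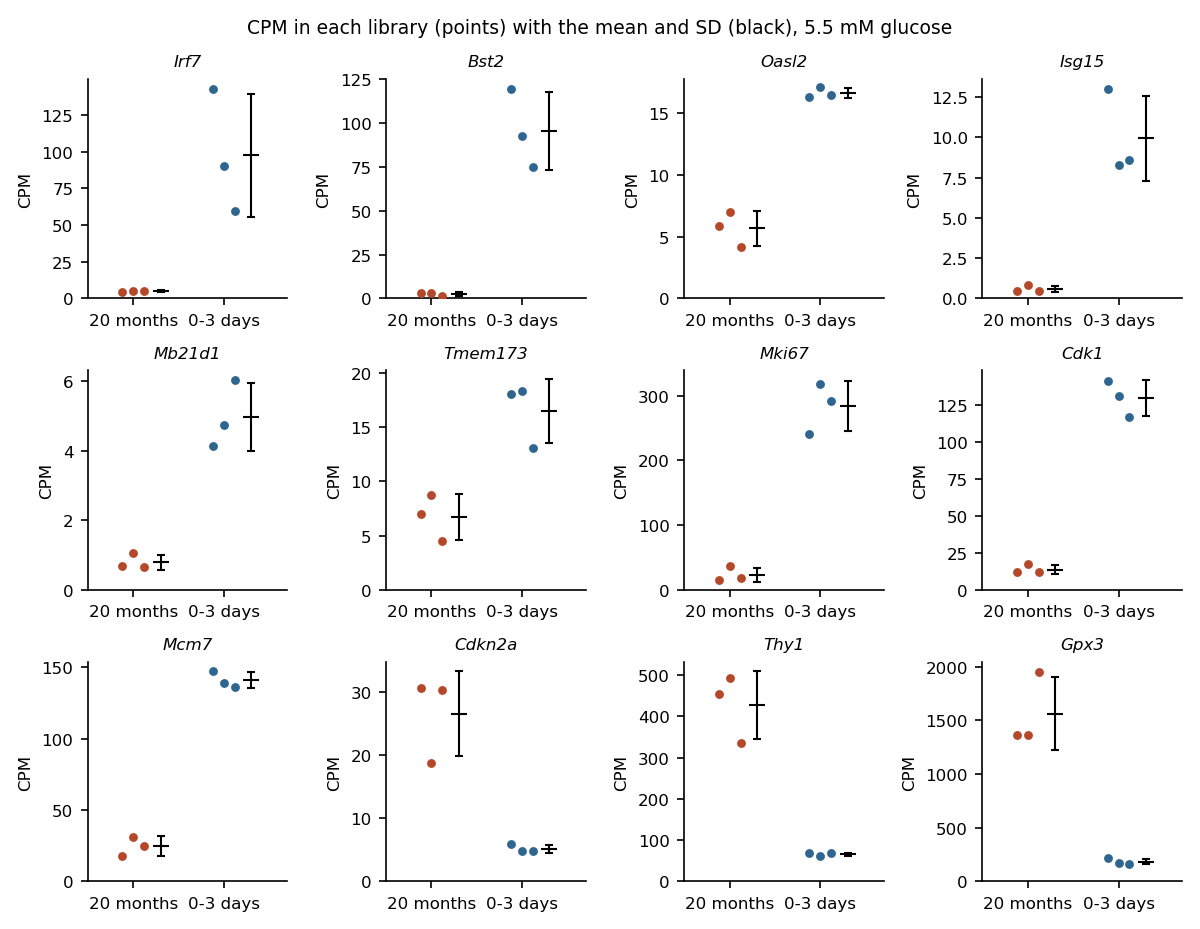
CPM of 12 genes in each of the 3 libraries at 20 months (red) and the 3 at 0-3 days (blue) in 5.5 mM glucose, with the mean and SD of each group in black; axes start at 0. The age groups are separate in every panel, and Cdkn2a, Thy1 and Gpx3 are the 3 that are higher at 20 months.

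Interferon genes were lower in the old cultures. Of the interferon-stimulated list's 39 members, 39 passed the filter, 33 fell, 24 of them over 2-fold, and 1 rose, against 27.8% lower and 26.1% higher among all tested genes. The median change was -1.55. Promoters were searched for the interferon-stimulated response element (ISRE), a motif through which interferon is known to switch on such genes. It was searched as a GAAA followed after 2 free bases by another GAAA, on either strand. The search used the RefSeq promoters of rat assembly GRCr8, 250 bases before to 50 bases after the start. Of 39 tested members, 29 had a promoter in the table and 21 of these (72.4%) held the motif, against 1034 of all 27457 promoters (3.77%). In the interferon signalling list 3 of 18 promoters (16.7%) held it, among them that of Irf7. Below are the last 140 bases before the start in 4 promoters, that of Irf7 and those of 3 interferon-stimulated genes, 5′ to 3′ on the gene's strand, with ISRE matches in capitals; adjoining capitals in Bst2 and Oas1a are overlapping matches.

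Irf7 promoter, chr1:205800024-205800163, minus strand: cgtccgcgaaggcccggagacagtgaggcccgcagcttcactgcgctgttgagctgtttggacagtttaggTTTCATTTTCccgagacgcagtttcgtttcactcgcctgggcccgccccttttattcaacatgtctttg
Bst2 promoter, chr16:18254968-18255107, minus strand: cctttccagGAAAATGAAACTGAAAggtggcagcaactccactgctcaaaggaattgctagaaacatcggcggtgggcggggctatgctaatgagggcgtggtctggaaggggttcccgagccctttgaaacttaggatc
Oas1a promoter, chr12:41330326-41330465, plus strand: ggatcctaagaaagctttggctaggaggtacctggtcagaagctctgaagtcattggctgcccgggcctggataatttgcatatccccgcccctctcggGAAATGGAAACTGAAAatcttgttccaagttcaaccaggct
Ifit3 promoter, chr1:241527186-241527325, plus strand: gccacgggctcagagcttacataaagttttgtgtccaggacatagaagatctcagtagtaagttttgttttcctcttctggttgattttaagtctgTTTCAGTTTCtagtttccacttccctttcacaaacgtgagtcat

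Of the 21 promoters with a match 18 belonged to genes that fell, 1 to a gene that rose and 2 to genes not called; the 8 without a match all belonged to genes that fell. A match is a stretch of letters, not a measured site, and no match says only that these letters are not in this window. The list was made of genes known to answer to interferon, so its high share of matches is no result about their change with age.

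The sensor of stray DNA and its adaptor fell, as did some sensors of RNA. Mb21d1, which encodes the cytosolic DNA sensor cGAS, had 0.689, 1.05 and 0.648 CPM at 20 months, against 4.13, 4.74 and 6.04 CPM at 0-3 days. Mb21d1 changed by -2.64 ± 0.35 on the log2 scale (SE, adjusted p = 3.87e-06). Tmem173, its adaptor STING, had 6.99, 8.73 and 4.53 CPM at 20 months, against 18.1, 18.3 and 13.1 CPM at 0-3 days. Tmem173 changed by -1.29 ± 0.21 on the log2 scale (SE, adjusted p = 4.39e-05). For both, every 20-month library lay under every 0-3 day library. On the RNA side, Mavs, the mitochondrial adaptor of the RNA sensors, rose, with 45.3, 39.2 and 53.2 CPM at 20 months, against 29.3, 23.9 and 25.4 CPM at 0-3 days. Mavs changed by 0.81 ± 0.12 on the log2 scale (SE, adjusted p = 9.91e-06). Ddx58, the RNA sensor RIG-I, was not called at 5.28 ± 0.133 CPM at 20 months and 6.77 ± 0.992 CPM at 0-3 days. The related RNA sensors Dhx58 and Ifih1 fell by 2.04 and 0.39 on the log2 scale, the call of Ifih1 being lost without the 20-month library numbered 1 or the 0-3 day library numbered 3 (adjusted p = 0.0765 and 0.0953). Tlr4, the receptor for bacterial lipopolysaccharide, rose by a log2 change of 0.39, a call lost without the 20-month library numbered 2 or the 0-3 day library numbered 3 (adjusted p = 0.0737 and 0.0636).

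Between receptor and nucleus the changes were uneven. The signalling list had 24 tested members, of which 12 fell and 2 rose, with a median of -0.44. Irf7 (ENSRNOG00000017414, chromosome 1, 214248837 to 214252456 on the minus strand of Rnor_6.0), the factor that amplifies type I interferon production, had 4.38, 5.39 and 5.35 CPM at 20 months, against 143, 90.3 and 59.4 CPM at 0-3 days. Irf7 changed by -4.27 ± 0.697 on the log2 scale (SE, adjusted p = 5.21e-05). Its SD at 20 months was 0.572 CPM, while the values at 0-3 days were spread widely, and the groups did not overlap. Irf1, an early interferon-response factor, had 11.5, 11.01 and 11.7 CPM at 20 months, against 30.3, 27.5 and 25.9 CPM at 0-3 days. Irf1 changed by -1.29 ± 0.11 on the log2 scale (SE, adjusted p = 3.13e-08). Jak2, a receptor-associated kinase, averaged 41.96 ± 1.697 CPM at 20 months and 98.3 ± 16.6 CPM at 0-3 days, log2 change -1.23 ± 0.17. Stat2 and Irf9, transcription factors of interferon signalling, fell modestly, by log2 changes of -0.53 and -0.61. The receptor chain Ifnar1 and the kinase Jak1 were not called, at 83.99 ± 7.18 CPM at 20 months and 80.2 ± 6.56 CPM at 0-3 days and 395 ± 26.7 CPM at 20 months and 373 ± 8.03 CPM at 0-3 days. Socs3, a feedback inhibitor of JAK signalling, fell, at 1.66 ± 0.379 CPM at 20 months and 9.83 ± 3.86 CPM at 0-3 days.

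Among the targets, the antiviral effectors carried the largest changes. Bst2, tetherin, which holds budding virus at the membrane, had 3.15, 3.15 and 1.17 CPM at 20 months, against 119, 92.7 and 74.9 CPM at 0-3 days. Bst2 changed by -5.27 ± 0.71 on the log2 scale (SE, adjusted p = 7.74e-06). Mx2, an interferon-induced GTPase, had 0.541, 0.191 and 0 CPM at 20 months, against 22.2, 19.8 and 25.1 CPM at 0-3 days, log2 change -6.54 ± 0.93. That change was -7.85 without the 20-month library numbered 1 and -5.92 without the 20-month library numbered 3. The 2-5A synthetases, which start RNA decay on sensing double-stranded RNA, fell together: Oas1a had 0.246, 0.143 and 0 CPM at 20 months, against 14.6, 10.5 and 9.804 CPM at 0-3 days, log2 change -6.48 ± 1.01 (-7.29 without the 20-month library numbered 1 and -5.87 without the 20-month library numbered 3), Oas3 was 63.5-fold lower (95% counting interval 10.99 to 2548), and Oasl2 had 5.86, 6.96 and 4.19 CPM at 20 months, against 16.3, 17.1 and 16.5 CPM at 0-3 days. Oasl2 changed by -1.55 ± 0.18 on the log2 scale (SE, adjusted p = 9.3e-07). These synthetases and the Mx genes form close families whose reads the authors' counting could have split. Isg15, the ubiquitin-like modifier, had 0.443, 0.811 and 0.475 CPM at 20 months, against 12.999, 8.28 and 8.596 CPM at 0-3 days. Isg15 changed by -4.101 ± 0.63 on the log2 scale (SE, adjusted p = 2.56e-05). Trim21, a ubiquitin ligase and antibody receptor, fell by 0.97 on the log2 scale. The tetratricopeptide genes diverged: Ifit3 averaged 1.07 ± 0.231 CPM at 20 months and 8.41 ± 1.83 CPM at 0-3 days, log2 change -2.98 ± 0.66, whereas Ifit2 was not called at 72.9 ± 11.9 CPM at 20 months and 78.9 ± 3.41 CPM at 0-3 days. Irgm, an immunity-related GTPase, was the member called higher, at 13.7 ± 1.17 CPM at 20 months and 10.3 ± 2.198 CPM at 0-3 days. Irgm changed by 0.404 ± 0.16 on the log2 scale (SE, adjusted p = 0.0436), and it lost that call in 8 of the alternative settings tried.

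The level of the interferon list and that of macrophage markers were set side by side across the 4 ages. Summed interferon-stimulated genes stood at 1137 CPM at 0-3 days, 909 CPM at 3-4 weeks, 709 CPM at 10-13 weeks and 503 CPM at 20 months. Macrophage sums at 10-13 weeks and 20 months overlapped, as given above, while each interferon sum at 10-13 weeks (593, 651 and 882 CPM) lay above each at 20 months (526, 539.6 and 443 CPM). Whether fewer macrophages account for part of the difference from 0-3 days was not tested.

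**Figure D3:**
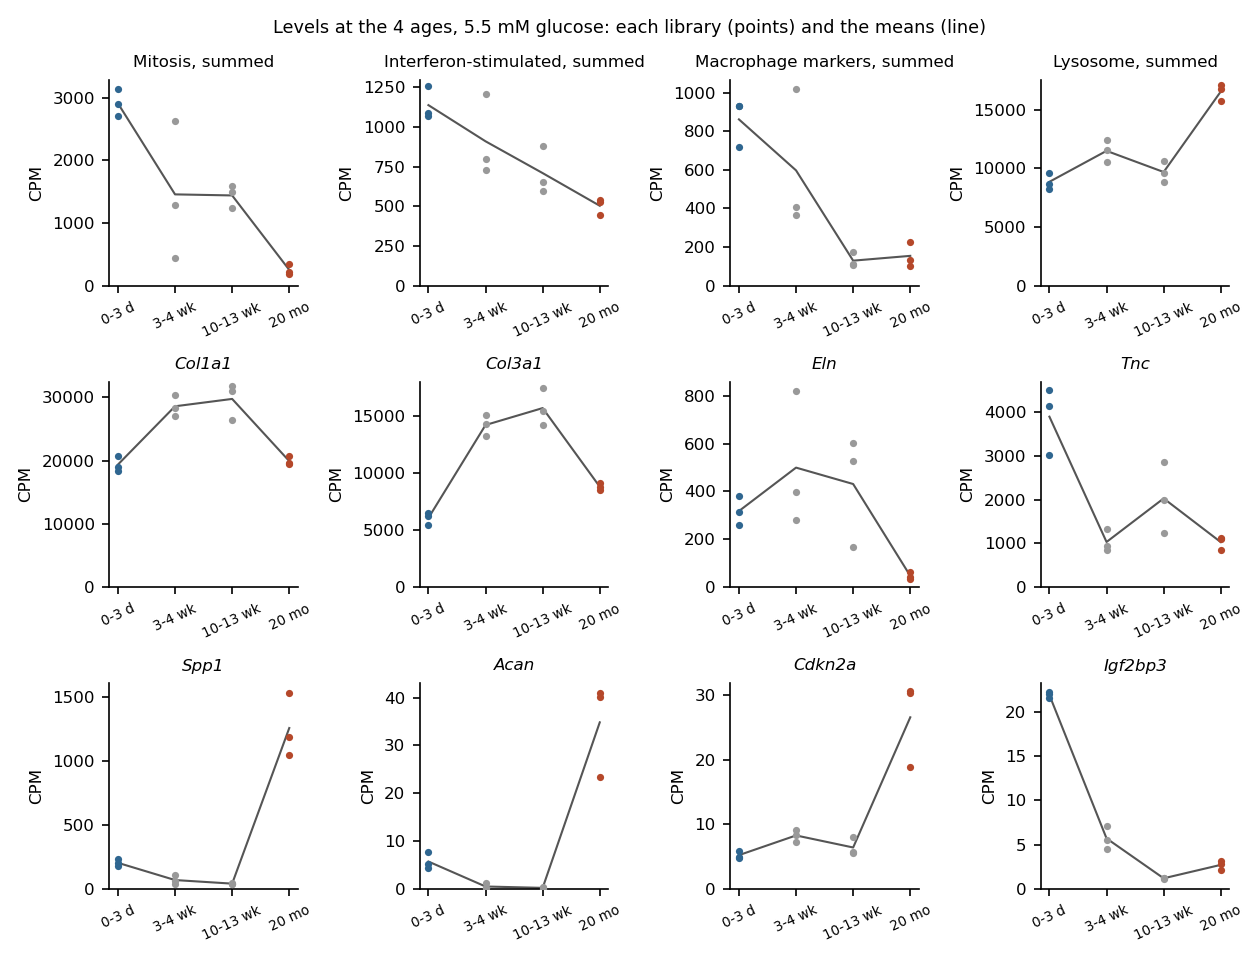
CPM at the 4 ages in 5.5 mM glucose for 4 summed gene lists and 8 genes; each point is a library (0-3 days blue, 20 months red) and the line joins the means; axes start at 0. Mitosis, interferon-stimulated genes and Igf2bp3 are lowest or near lowest at 20 months, Spp1, Acan and Cdkn2a are highest there, and Col1a1 and Col3a1 peak at the ages between.

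Antigen presentation genes, many of which interferon induces, fell in part. The class I list had 18 tested members, 12 lower and 1 higher. Psmb9, a subunit of the immunoproteasome that cuts peptides for class I, had 5.22, 4.53 and 5.18 CPM at 20 months, against 26.8, 16.2 and 15.2 CPM at 0-3 days. Psmb9 changed by -1.96 ± 0.35 on the log2 scale (SE, adjusted p = 0.000116). Psmb10, another such subunit, Psme1, a proteasome activator, and Tapbp, which loads peptides, had log2 changes of -1.29, -1.01 and -1.01. B2m, the light chain of class I, was not called, at 1309 ± 75.5 CPM at 20 months and 1353 ± 261 CPM at 0-3 days. The class I heavy chain genes split: RT1-N3 fell at 9.901 ± 0.336 CPM at 20 months and 39.9 ± 1.62 CPM at 0-3 days, while RT1-CE16 rose with 38.1, 89.2 and 74.1 CPM at 20 months, against 4.26, 4.55 and 3.48 CPM at 0-3 days. RT1-CE16 had 0, 0.156 and 0.0979 CPM at 3-4 weeks and 38.6, 30.99 and 58.4 CPM at 10-13 weeks. RT1 genes are near-identical copies that differ between strains, so their split is uncertain.

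Chemokine and complement genes were lower in part. Of 19 tested chemokines and cytokines 10 fell and 2 rose, and of 16 tested complement genes 8 fell and 2 rose. Cxcl12, a chemokine that retains stem cells and lymphocytes, had 120.1, 226 and 151 CPM at 20 months, against 507, 677 and 609 CPM at 0-3 days. Cxcl12 changed by -1.85 ± 0.38 on the log2 scale (SE, adjusted p = 0.000447). Ccl7 and Cxcl16, which draw monocytes and T cells, averaged 29.995 ± 4.14 CPM at 20 months and 139 ± 38.97 CPM at 0-3 days, and 42.5 ± 11.9 CPM at 20 months and 119.6 ± 30.5 CPM at 0-3 days. Tslp, a cytokine of barrier tissue, and Cx3cl1, fractalkine, fell at 6.63 against 36.5 CPM and 2.305 against 11.4 CPM (20 months against 0-3 days). Il33, an alarmin of stromal cells, rose, with 63.9, 47.4 and 44.6 CPM at 20 months, against 16.4, 30.4 and 20.5 CPM at 0-3 days. Il33 changed by 1.21 ± 0.42 on the log2 scale (SE, adjusted p = 0.0218). It was not called without the 20-month library numbered 1, or the 0-3 day library numbered 1 or 3 (adjusted p = 0.0777, 0.085 and 0.0665). Il6 and the macrophage growth factor Csf1 were not called, at 3.45 ± 1.202 CPM at 20 months and 2.12 ± 1.402 CPM at 0-3 days, and 393 ± 75.6 CPM at 20 months and 318 ± 70.3 CPM at 0-3 days. C1s, a protease of the classical complement pathway, had 117, 129.97 and 104 CPM at 20 months, against 744, 611 and 482 CPM at 0-3 days. C1s changed by -2.39 ± 0.405 on the log2 scale (SE, adjusted p = 7.52e-05).

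Genes of cell division were lower throughout. All 30 tested DNA replication genes and all 29 tested mitosis genes fell, every one over 2-fold, with medians of -2.26 and -3.53. Promoters of mitotic genes are known to share the cell cycle homology region (CHR, TTTGAA), bound by the DREAM complex in resting cells, and the CCAAT box (CCAAT), bound by NF-Y; both were searched on either strand. Of 29 tested mitosis genes 24 had a promoter, 17 (70.8%) held a CHR against 4962 of 27457 promoters (18.1%), and 16 (66.7%) held a CCAAT box against 10363 (37.7%). The last 140 bases before the start of 3 genes are shown with both motifs in capitals; in Mki67 the second CHR and a reversed CCAAT box overlap and read as a single run.

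Cdc20 promoter, chr5:137255800-137255939, minus strand: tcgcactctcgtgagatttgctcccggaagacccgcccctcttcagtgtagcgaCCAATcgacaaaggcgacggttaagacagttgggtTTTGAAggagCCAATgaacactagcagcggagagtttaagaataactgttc
Cdk1 promoter, chr20:19265153-19265292, plus strand: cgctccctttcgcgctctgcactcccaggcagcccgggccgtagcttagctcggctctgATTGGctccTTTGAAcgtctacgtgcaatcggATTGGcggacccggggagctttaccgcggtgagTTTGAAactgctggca
Mki67 promoter, chr1:199952594-199952733, minus strand: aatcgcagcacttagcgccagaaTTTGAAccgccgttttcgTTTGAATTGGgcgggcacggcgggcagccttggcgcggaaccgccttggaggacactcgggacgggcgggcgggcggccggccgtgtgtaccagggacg

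All 24 of these genes fell, with a match or without. The list was made of known mitosis genes, so its high share of matches is no result about their change with age. The replication list was searched in the same way: of 24 promoters, 2 (8.33%) held a CHR, a lower share than among all promoters, and 17 (70.8%) held a CCAAT box, and these genes fell too. In replication, Mcm7, a subunit of the helicase that opens DNA, had 17.6, 31.5 and 24.6 CPM at 20 months, against 147, 139 and 137 CPM at 0-3 days. Mcm7 changed by -2.52 ± 0.39 on the log2 scale (SE, adjusted p = 2.89e-05). Orc6, a subunit of the origin recognition complex, had 4.82, 7.06 and 7.34 CPM at 20 months, against 21.03, 22.6 and 25.6 CPM at 0-3 days, log2 change -1.85 ± 0.27. Gins4 of the replicative helicase, Rfc3 of the clamp loader and the nucleotide enzyme Tyms had log2 changes of -2.34, -1.97 and -1.36. In mitosis the changes were larger. Mki67 (ENSRNOG00000028137, chromosome 1, 207993895 to 208020454 on the minus strand of Rnor_6.0), whose protein coats mitotic chromosomes and marks dividing cells, had 14.9, 36.2 and 18.1 CPM at 20 months, against 242, 319 and 292 CPM at 0-3 days. Mki67 changed by -3.62 ± 0.59 on the log2 scale (SE, adjusted p = 4.89e-05). Cdk1, the kinase that starts mitosis, had 11.8, 17.4 and 12.01 CPM at 20 months, against 141, 132 and 117 CPM at 0-3 days, log2 change -3.24 ± 0.53, and Cdc20, which activates the ligase that ends it, 5.61, 10.3 and 7.47 CPM at 20 months, against 135, 140.002 and 97.9 CPM at 0-3 days, log2 change -3.996 ± 0.62. Bub1 and Ttk, kinases of the spindle checkpoint, had 8.71, 12.8 and 7.25 CPM at 20 months, against 90.3, 101 and 90.5 CPM at 0-3 days, and 2.904, 5.77 and 3.196 CPM at 20 months, against 64.4, 61.7 and 52.8 CPM at 0-3 days. No division gene named here had overlapping groups. The mitosis sum was 182, 349.8 and 222 CPM at 20 months, against 2895, 3138 and 2706 CPM at 0-3 days. At the ages between it was 444, 2639 and 1292 CPM at 3-4 weeks and 1586, 1499 and 1238 CPM at 10-13 weeks, where the 3-4 week library numbered 1, the one with the highest macrophage sum, held the lowest mitosis sum of its group.

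DNA repair genes fell in part, 19 of 25, with 1 higher. Fancd2 and Fanca, of the Fanconi pathway that unhooks crosslinked strands, averaged 5.98 ± 2.11 CPM at 20 months and 51.8 ± 2.14 CPM at 0-3 days, and 3.46 ± 1.04 CPM at 20 months and 22.7 ± 1.68 CPM at 0-3 days. Parp1, the break sensor, and Msh6, of mismatch repair, changed by -1.01 and -1.03 on the log2 scale. Ercc1 of nucleotide excision and Ogg1 of base excision were not called, at 39.1 ± 3.99 CPM at 20 months and 44.3 ± 3.27 CPM at 0-3 days, and 11.8 ± 0.796 CPM at 20 months and 12.1 ± 0.275 CPM at 0-3 days. Xrcc5, the Ku80 end-joining protein, rose slightly, with 41.9, 37.1 and 36.3 CPM at 20 months, against 32.7, 28.5 and 30.3 CPM at 0-3 days.

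Inhibitors of the cell cycle went in both directions. Of 24 tested genes of arrest and senescence, 11 rose and 9 fell. Cdkn2a (ENSRNOG00000059837, chromosome 5, 107823330 to 107841175 on the minus strand of Rnor_6.0), the locus of p16 and p19ARF, had 30.6, 18.8 and 30.3 CPM at 20 months, against 5.9005, 4.89 and 4.78 CPM at 0-3 days. Cdkn2a changed by 2.35 ± 0.205 on the log2 scale (SE, adjusted p = 2.99e-08). It averaged 8.24 CPM at 3-4 weeks and 6.37 CPM at 10-13 weeks, so the 20-month group alone stood high. Cdkn1a, the p53 target p21, had 192, 204 and 224 CPM at 20 months, against 65.1, 61.3 and 81.7 CPM at 0-3 days. Cdkn1a changed by 1.58 ± 0.33 on the log2 scale (SE, adjusted p = 0.000534). Ccng1, another p53 target, averaged 450.1 ± 14.4 CPM at 20 months and 184 ± 28.6 CPM at 0-3 days, and Glb1, the lysosomal galactosidase stained in senescence assays, averaged 249 ± 16.1 CPM at 20 months and 119.8 ± 11.4 CPM at 0-3 days. Lmnb1, lamin B1, had 7.58, 15.1 and 9.72 CPM at 20 months, against 98.6, 98.3 and 98.9 CPM at 0-3 days. Lmnb1 changed by -3.19 ± 0.54 on the log2 scale (SE, adjusted p = 7.21e-05). Hmgb2, a chromatin protein, averaged 2.32 ± 1.15 CPM at 20 months and 22.9 ± 1.06 CPM at 0-3 days. Cdkn1c, an imprinted inhibitor, and Rbl1, the pocket protein p107, fell at 0.247 against 1.84 CPM and 7.44 against 32.03 CPM (20 months against 0-3 days). Secreted proteins of the list diverged. Igfbp5, which binds insulin-like growth factors, had 535, 1103 and 416 CPM at 20 months, against 24.3, 28.8 and 24.5 CPM at 0-3 days. Igfbp5 changed by 4.73 ± 0.65 on the log2 scale (SE, adjusted p = 9.6e-06). Igfbp3, the main carrier of these factors in serum, had 92.8, 108 and 84.1 CPM at 20 months, against 1583, 1259 and 535 CPM at 0-3 days. Igfbp3 changed by -3.57 ± 0.58 on the log2 scale (SE, adjusted p = 5.04e-05).

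Most genes of the fetal list fell. Of 16 tested fetal RNA-binding and chromatin genes, 13 fell and 1 rose. Lin28a, Lin28b and Hells were listed at 0 in all libraries, which is not read as absence of expression. The oncofetal proteins that bind Igf2 messenger RNA fell. Igf2bp3 had 2.17, 2.81 and 3.11 CPM at 20 months, against 21.6, 22.3 and 22.02 CPM at 0-3 days. Igf2bp3 changed by -3.02 ± 0.205 on the log2 scale (SE, adjusted p = 1.23e-09). Igf2bp2 had 2.904, 3.86 and 2.55 CPM at 20 months, against 17.8, 21.97 and 19.9 CPM at 0-3 days, and Igf2bp1 had no count at 20 months and was at least 176-fold lower. Igf2, the fetal growth factor itself, had 0.738, 0.143 and 1.12 CPM at 20 months, against 7.76, 9.44 and 8.45 CPM at 0-3 days. Igf2 changed by -3.65 ± 0.56 on the log2 scale (SE, adjusted p = 2.3e-05), or -4.27 without the 20-month library numbered 3. Igf1, the postnatal one, rose, with 91.2, 91.4 and 73.97 CPM at 20 months, against 31.2, 38.2 and 30.7 CPM at 0-3 days. Igf1 changed by 1.36 ± 0.27 on the log2 scale (SE, adjusted p = 0.000389). The maintenance methyltransferase Dnmt1 and its recruiter Uhrf1, both tied to S phase, averaged 58.9 ± 9.703 CPM at 20 months and 233 ± 10.2 CPM at 0-3 days, and 18.2 ± 5.56 CPM at 20 months and 129.5 ± 10.7 CPM at 0-3 days. Ezh1, the Polycomb methyltransferase of resting cells, rose, at 44.4 ± 1.07 CPM at 20 months and 27.1 ± 1.77 CPM at 0-3 days. Of 25 tested genes of the IGF axis and imprinted growth control, 9 rose and 9 fell, against 26.1% and 27.8% among all tested genes. The imprinted members went in both directions. Igf2r, which clears Igf2 from the cell surface, and Phlda2 rose by 0.46 and 1.47 on the log2 scale. The call of Igf2r was lost without the 20-month or the 0-3 day library numbered 3 (adjusted p = 0.112 and 0.0659). That of Phlda2 was lost without any of 4 libraries, those numbered 1 and 2 at 20 months and 2 and 3 at 0-3 days (adjusted p 0.0778 to 0.175), and with no filter on low counts (adjusted p = 0.0631). Among those that fell, Slc38a4, an amino acid transporter, had 5.56, 3.53 and 3.15 CPM at 20 months, against 46.5, 45.5 and 38.3 CPM at 0-3 days, and Plagl1, a growth-limiting factor, 0.738, 0.715 and 0.648 CPM at 20 months, against 4.13, 5.18 and 4.83 CPM at 0-3 days. The proteases that free Igf1 from its binding proteins rose. Pappa had 58.4, 78.6 and 56.7 CPM at 20 months, against 5.81, 10.02 and 8.26 CPM at 0-3 days. Pappa changed by 3.01 ± 0.34 on the log2 scale (SE, adjusted p = 9.18e-07). Pappa2 averaged 7.24 ± 0.687 CPM at 20 months and 0.4096 ± 0.112 CPM at 0-3 days.

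Collagen genes went in both directions. Of 17 tested collagen genes 9 rose and 6 fell, and the sum was 42286, 39247 and 40297 CPM at 20 months, against 33149, 33721 and 37633 CPM at 0-3 days. Col8a1 and Col8a2, the chains of the network collagen VIII, both rose. Col8a1 had 1566, 1662 and 2219 CPM at 20 months, against 240.2, 299 and 294 CPM at 0-3 days. Col8a1 changed by 2.71 ± 0.17 on the log2 scale (SE, adjusted p = 5.64e-10). Col8a2 had 148, 164 and 255 CPM at 20 months, against 24.5, 27.2 and 28.98 CPM at 0-3 days. Col8a2 changed by 2.81 ± 0.25 on the log2 scale (SE, adjusted p = 7.96e-08). Col11a1, a chain that seeds thin fibrils in cartilage, had 453, 344 and 526 CPM at 20 months, against 117, 116 and 149 CPM at 0-3 days. Col11a1 changed by 1.79 ± 0.35 on the log2 scale (SE, adjusted p = 0.000298). Col3a1, the fibrillar collagen of compliant tissue, had 9125, 8722 and 8500.2 CPM at 20 months, against 6258, 5436 and 6456 CPM at 0-3 days. Col3a1 changed by 0.54 ± 0.13 on the log2 scale (SE, adjusted p = 0.00162). Both Col1a1 and Col3a1 were at their highest in between: Col1a1 averaged 19376 CPM at 0-3 days, 28592 CPM at 3-4 weeks, 29755 CPM at 10-13 weeks and 19922 CPM at 20 months, and Col3a1 averaged 14184 CPM at 3-4 weeks and 15666 CPM at 10-13 weeks. Col12a1, which decorates fibrils under tension, fell with 718, 928 and 634 CPM at 20 months, against 1432, 1793 and 1842 CPM at 0-3 days. Col12a1 changed by -1.15 ± 0.16 on the log2 scale (SE, adjusted p = 6.21e-06). Col18a1, the source of endostatin, averaged 40.3 ± 7.096 CPM at 20 months and 139 ± 8.09 CPM at 0-3 days. In the basement membrane 8 of 18 tested genes rose and 3 fell. Lama5, a laminin chain of adult basement membranes, averaged 435 ± 63.4 CPM at 20 months and 223 ± 13.7 CPM at 0-3 days.

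Elastic fibre genes went in both directions. Of 19 tested members, 8 rose and 5 fell. Eln, elastin, the rubber-like core of the fibre, had 43.95, 65.1 and 32.3 CPM at 20 months, against 314, 259.7 and 379 CPM at 0-3 days. Eln changed by -2.75 ± 0.56 on the log2 scale (SE, adjusted p = 0.000445), and averaged 499 CPM at 3-4 weeks and 431 CPM at 10-13 weeks. Fbn2, the fibrillin of fetal microfibrils, averaged 4.07 ± 1.41 CPM at 20 months and 23.6 ± 2.95 CPM at 0-3 days, and Fbln1, fibulin-1, 34.1 ± 7.61 CPM at 20 months and 187 ± 28.4 CPM at 0-3 days. Latent TGF-beta binding proteins went in both directions. Ltbp4, which guides elastin deposition, had 15.1, 29.4 and 16.8 CPM at 20 months, against 157, 136 and 144 CPM at 0-3 days. Ltbp4 changed by -2.83 ± 0.302 on the log2 scale (SE, adjusted p = 5.58e-07). Ltbp2, which binds fibrillin but not TGF-beta, had 4716, 4279 and 4679 CPM at 20 months, against 939, 1227 and 1369 CPM at 0-3 days. Ltbp2 changed by 1.95 ± 0.199 on the log2 scale (SE, adjusted p = 2.29e-07). Fbln2 rose, at 3831 ± 106 CPM at 20 months and 1180.1 ± 94.1 CPM at 0-3 days. The crosslinking enzymes Loxl1 and Loxl3 rose by 0.498 and 1.26 on the log2 scale, whereas Lox was not called at 515 ± 218 CPM at 20 months and 848 ± 93.2 CPM at 0-3 days.

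Proteoglycans and matricellular proteins, which tune how cells grip the matrix, changed in both directions. Among 22 tested proteoglycans and hyaluronan genes 6 rose and 8 fell, against 26.1% higher and 27.8% lower among all tested genes. Vcan, versican, the proteoglycan of developing tissue, had 633, 689.8 and 493 CPM at 20 months, against 1063, 1415 and 1361 CPM at 0-3 days. Vcan changed by -1.08 ± 0.13 on the log2 scale (SE, adjusted p = 1.74e-06). Fmod, fibromodulin, averaged 5.38 ± 1.43 CPM at 20 months and 65.7 ± 12.05 CPM at 0-3 days. Sdc2, a cell surface heparan sulfate carrier, rose at 898 ± 106 CPM at 20 months and 336 ± 34.3 CPM at 0-3 days. Of 23 tested matricellular and adhesive proteins 11 rose and 4 fell. Tnc, tenascin-C, a glycoprotein of embryonic and healing tissue, had 1125, 1104 and 855 CPM at 20 months, against 3018, 4511 and 4144 CPM at 0-3 days. Tnc changed by -1.92 ± 0.31 on the log2 scale (SE, adjusted p = 4.37e-05). Fn1, fibronectin, had 25217, 31214 and 28938 CPM at 20 months, against 17217, 19242 and 17724 CPM at 0-3 days. Fn1 changed by 0.66 ± 0.12 on the log2 scale (SE, adjusted p = 0.00011). Sparc, which binds collagen, had 11612, 11587 and 11954 CPM at 20 months, against 6734, 6090.4 and 6338 CPM at 0-3 days. Sparc changed by 0.88 ± 0.08 on the log2 scale (SE, adjusted p = 6.38e-08). Postn, periostin, a marker of activated cardiac fibroblasts, was not called, with 4023, 3307 and 2751 CPM at 20 months, against 2666, 2432 and 2889.97 CPM at 0-3 days.

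Genes better known from cartilage and bone were higher in the old cultures. The list had 26 members in the table, but 14 passed the filter; 10 of these rose, 9 over 2-fold, and none fell, with a median of 1.07. Spp1, osteopontin, a phosphoprotein of bone and inflamed tissue, had 1051, 1188 and 1536 CPM at 20 months, against 201, 231 and 175 CPM at 0-3 days. Spp1 changed by 2.64 ± 0.36 on the log2 scale (SE, adjusted p = 7.94e-06). Acan, aggrecan, the large proteoglycan of cartilage, had 23.4, 41.003 and 40.1 CPM at 20 months, against 4.26, 5.18 and 7.58 CPM at 0-3 days. Acan changed by 2.62 ± 0.52 on the log2 scale (SE, adjusted p = 0.000328). Neither followed age in 1 direction: Spp1 averaged 67.3 CPM at 3-4 weeks and 39.2 CPM at 10-13 weeks, and Acan 0.449 CPM at 3-4 weeks and 0.15998 CPM at 10-13 weeks, below both ends. Comp, a cartilage glycoprotein, averaged 6.95 ± 0.836 CPM at 20 months and 1.37 ± 0.4298 CPM at 0-3 days. Mgp, a matrix protein that restrains calcification, had 3469, 4214 and 5485 CPM at 20 months, against 1046, 753 and 569 CPM at 0-3 days. Mgp changed by 2.47 ± 0.49 on the log2 scale (SE, adjusted p = 0.000348). The transcription factors of cartilage and bone, Sox9 and Runx2, rose by log2 changes of 1.02 and 0.95, and Ankh, a pyrophosphate exporter, by 1.08. The terminal markers were near or at 0: Col2a1, Col10a1, Bglap and Sp7 summed to 6, 19, 3 and 0 counts over the 20-month libraries, and 0, 0, 0 and 2 over the 0-3 day libraries, and Ibsp had no count at either age.

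Among proteases and their inhibitors 10 of 23 tested rose and 6 fell. Adamts2, which trims procollagen, had 437, 497 and 507 CPM at 20 months, against 202, 174 and 186 CPM at 0-3 days. Adamts2 changed by 1.36 ± 0.11 on the log2 scale (SE, adjusted p = 9.76e-09). Timp2, an inhibitor of metalloproteinases, averaged 1171 ± 91.96 CPM at 20 months and 565 ± 48.6 CPM at 0-3 days, and Serpine2, protease nexin, 73.01 ± 14.3 CPM at 20 months and 19.7 ± 3.59 CPM at 0-3 days. The metalloproteinases of macrophages and inflamed tissue, Mmp12 and Mmp9, fell, at 32.7 ± 14.3 CPM at 20 months and 163 ± 18.5 CPM at 0-3 days, and 5.996 ± 4.31 CPM at 20 months and 28.2 ± 10.9 CPM at 0-3 days. The change of Mmp9 was -2.24, -2.89 without the 20-month library numbered 2, and it was not called without the 20-month library numbered 3 (adjusted p = 0.0693). Plau, urokinase, fell by 2.28 on the log2 scale.

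The contractile genes of myofibroblasts gave no common direction: 3 of 17 tested rose and 5 fell, with a median of 0.02. Acta2, smooth muscle alpha actin, the usual myofibroblast marker, had 4888, 4779 and 5206 CPM at 20 months, against 3354, 3296 and 3968 CPM at 0-3 days. Acta2 changed by 0.49 ± 0.15 on the log2 scale (SE, adjusted p = 0.00819). Cald1, caldesmon, averaged 2883 ± 129 CPM at 20 months and 1765 ± 184 CPM at 0-3 days, and Lmod1, leiomodin, 125 ± 11.8 CPM at 20 months and 50.03 ± 5.55 CPM at 0-3 days. Tagln, transgelin, was not called at 4013 ± 368 CPM at 20 months and 3348 ± 444 CPM at 0-3 days. Actg2, Synpo2 and Ldb3, which muscle cells also express, fell by 2.72, 2.32 and 4.85 on the log2 scale beside the muscle markers above; the part of muscle cells in this was not tested. Myh9 was listed at 0 in all libraries, which is not read as absence of expression.

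Ligands, receptors and inhibitors of the TGF-beta and BMP pathway changed in both directions. Of 30 tested members, 10 were higher and 8 lower, shares near the 26.1% and 27.8% among all tested genes. The ligand Tgfb3 had 2279, 2267 and 2559.6 CPM at 20 months, against 916, 929.7 and 1218 CPM at 0-3 days. Tgfb3 changed by 1.21 ± 0.26 on the log2 scale (SE, adjusted p = 0.0007). Tgfb2 averaged 609 ± 111 CPM at 20 months and 269.99 ± 67.6 CPM at 0-3 days; Tgfb1, the best known profibrotic form, was not called, at 196 ± 7.14 CPM at 20 months and 162 ± 8.73 CPM at 0-3 days, but was called higher with the 6 libraries alone (adjusted p = 0.0114). The receptor Tgfbr1 had 20.7, 22.6 and 18.9 CPM at 20 months, against 34.1, 38.8 and 39.9 CPM at 0-3 days. Tgfbr1 changed by -0.86 ± 0.09 on the log2 scale (SE, adjusted p = 5.32e-07). Its signal carrier Smad3 averaged 47.3 ± 2.08 CPM at 20 months and 80.2 ± 9.19 CPM at 0-3 days, and Tgfbr2 was not called at 133 ± 12.3 CPM at 20 months and 148 ± 5.802 CPM at 0-3 days. The inhibitory Smad6 had 91.99, 92.8 and 113 CPM at 20 months, against 38.8, 43.2 and 49.9 CPM at 0-3 days. Smad6 changed by 1.18 ± 0.18 on the log2 scale (SE, adjusted p = 1.84e-05). Smad7 averaged 166 ± 11.99 CPM at 20 months and 97.5 ± 9.57 CPM at 0-3 days. Id2 and Id3, targets of BMP signals, rose by 1.102 and 0.68 on the log2 scale. The ligand Bmp6 fell, at 49.9 against 90.9 CPM (20 months against 0-3 days).

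Of 29 tested Wnt genes 11 rose and 3 fell. The ligand Wnt11 rose, with 9.499, 9.01 and 6.69 CPM at 20 months, against 0.976, 0.678 and 1.01 CPM at 0-3 days. Secreted modulators went in both directions. Dkk3, of the Dickkopf family, had 778, 734 and 1051 CPM at 20 months, against 229.8, 198 and 196 CPM at 0-3 days. Dkk3 changed by 2.04 ± 0.18 on the log2 scale (SE, adjusted p = 4.53e-08). Sfrp4, which binds Wnt ligands, had 46.2, 35.997 and 39.7 CPM at 20 months, against 4.08, 4.501 and 1.98 CPM at 0-3 days. Sfrp4 changed by 3.52 ± 0.33 on the log2 scale (SE, adjusted p = 1.08e-07). Its relative Sfrp1 went the other way, with 8.86, 16.2 and 7.69 CPM at 20 months, against 75.6, 78.7 and 68.9 CPM at 0-3 days. Sfrp1 changed by -2.77 ± 0.598 on the log2 scale (SE, adjusted p = 0.000707). The co-receptor Lrp5 rose by 0.66 on the log2 scale, and Ctnnb1, beta-catenin, was not called at 379 ± 25.9 CPM at 20 months and 367 ± 11.4 CPM at 0-3 days. Among growth factors and receptors 12 of 37 tested rose and 11 fell, near the 26.1% higher and 27.8% lower among all tested genes. Gas6 had 944, 756 and 1201 CPM at 20 months, against 170.5, 139 and 145 CPM at 0-3 days. Gas6 changed by 2.68 ± 0.28 on the log2 scale (SE, adjusted p = 5.07e-07). Its receptor Axl had 418, 398 and 427 CPM at 20 months, against 732, 862 and 819.7 CPM at 0-3 days. Axl changed by -0.96 ± 0.101 on the log2 scale (SE, adjusted p = 3.08e-07). Nrg1, neuregulin, a signal to heart muscle, averaged 48.7 ± 9.18 CPM at 20 months and 14.2 ± 2.19 CPM at 0-3 days, and the receptor Egfr 21.4 ± 2.06 CPM at 20 months and 51.8 ± 7.79 CPM at 0-3 days.

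Detoxifying and antioxidant genes rose. Of 32 tested members 19 were higher and 3 lower. Gpx3, the secreted glutathione peroxidase, had 1362, 1365 and 1952 CPM at 20 months, against 215, 175 and 164 CPM at 0-3 days. Gpx3 changed by 3.08 ± 0.25 on the log2 scale (SE, adjusted p = 1.76e-08), and averaged 658 CPM at 3-4 weeks and 798 CPM at 10-13 weeks. Gsta1, a glutathione transferase, had 69.4, 85.7 and 80.02 CPM at 20 months, against 9.18, 7.404 and 8.79 CPM at 0-3 days. Gsta1 changed by 3.21 ± 0.22 on the log2 scale (SE, adjusted p = 1.45e-09). It belongs to a family of close copies, so reads may be split among them. Nqo1, a quinone reductase, had 476, 857 and 726 CPM at 20 months, against 98.1, 114 and 149 CPM at 0-3 days. Nqo1 changed by 2.51 ± 0.32 on the log2 scale (SE, adjusted p = 4.2e-06). Sod3, the extracellular superoxide dismutase, averaged 485 ± 13.8 CPM at 20 months and 119 ± 26.2 CPM at 0-3 days, and Cat, catalase, 130.2 ± 16.4 CPM at 20 months and 54.2 ± 1.88 CPM at 0-3 days. The members that fell were Sod2, the mitochondrial dismutase, Gclm, a subunit of the enzyme that starts glutathione synthesis, and Slc7a11, the cystine importer, at log2 changes of -0.84, -0.59 and -0.73. The call of Sod2, whose groups overlapped, was lost without any of 4 libraries, those numbered 2 and 3 at 20 months and 1 and 2 at 0-3 days (adjusted p 0.123 to 0.146), with no filter on low counts (adjusted p = 0.0775), and without both 3-4 week libraries numbered 1 (adjusted p = 0.0614). Hmox1 and Txnrd1, which share a regulator with Nqo1, were not called, at 198 ± 53.3 CPM at 20 months and 143 ± 12.9 CPM at 0-3 days, and 252 ± 38.99 CPM at 20 months and 205 ± 36.1 CPM at 0-3 days.

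Lysosomal genes rose broadly and modestly. Of 33 members 32 passed the filter, 24 rose, 9 of them over 2-fold, and 3 fell, with a median of 0.84. Gaa, acid glucosidase, which degrades glycogen, had 540.1, 563 and 608 CPM at 20 months, against 233, 215 and 203 CPM at 0-3 days. Gaa changed by 1.39 ± 0.102 on the log2 scale (SE, adjusted p = 3.01e-09). Npc2, which carries cholesterol out of the lysosome, had 1066, 979.9 and 1194 CPM at 20 months, against 343, 293 and 308 CPM at 0-3 days. Npc2 changed by 1.78 ± 0.14 on the log2 scale (SE, adjusted p = 9.69e-09). Lamp1, a membrane protein of the organelle, had 1621, 1718 and 1765 CPM at 20 months, against 1009.9, 888 and 879 CPM at 0-3 days. Lamp1 changed by 0.88 ± 0.09 on the log2 scale (SE, adjusted p = 1.72e-07). Gabarapl1, of autophagosome formation, averaged 129 ± 9.47 CPM at 20 months and 55.6 ± 1.76 CPM at 0-3 days. The members that fell were Ctss and Ctsz, cathepsins abundant in macrophages, at 2.94 against 18.7 CPM and 55.98 against 127 CPM, and Tfeb, the transcription factor of lysosomal genes, at 7.69 against 12.04 CPM (20 months against 0-3 days); Tfeb was not called without the 20-month library numbered 2 (adjusted p = 0.0632). The list summed to 15788, 16788 and 17103 CPM at 20 months, against 9611, 8704 and 8263 CPM at 0-3 days, and 12387, 10579 and 11530 CPM at 3-4 weeks and 8831, 9579.8 and 10671 CPM at 10-13 weeks.

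Mitochondrially encoded transcripts were higher, while the nuclear respiratory genes that were called were mostly lower. Of 11 tested mitochondrial genes 10 rose, and they summed to 35982, 35448 and 33532 CPM at 20 months, against 21473, 20575 and 21024 CPM at 0-3 days. Mt-co2, a cytochrome oxidase subunit, had 4839.7, 4418 and 4448 CPM at 20 months, against 2592, 2446 and 2607 CPM at 0-3 days. Mt-co2 changed by 0.84 ± 0.09 on the log2 scale (SE, adjusted p = 2.57e-07). Mt-atp6, of the ATP synthase, averaged 711 ± 78.6 CPM at 20 months and 348 ± 23.2 CPM at 0-3 days. Mt-nd6, the subunit read from the opposite strand, was not called, with 18.01, 21.2 and 18.5 CPM at 20 months, against 23.3, 30.4 and 33.4 CPM at 0-3 days, and was called lower with the 6 libraries alone (adjusted p = 0.00565) and without both 3-4 week libraries numbered 1 (adjusted p = 0.0475). Whether the counting used strand is not given in the sources used here. Of 28 tested nuclear genes of the chain and its regulators 2 rose and 11 fell, with a median of -0.05. Among all tested genes 26.1% were higher and 27.8% lower. Tfam, which packages mitochondrial DNA, had 17.9, 18.5 and 19.5 CPM at 20 months, against 36.1, 35.7 and 32.1 CPM at 0-3 days. Tfam changed by -0.89 ± 0.09 on the log2 scale (SE, adjusted p = 1.37e-07). Ppargc1a, the coactivator of mitochondrial growth that heart muscle also expresses, averaged 0.0765 ± 0.07203 CPM at 20 months and 2.32 ± 0.515 CPM at 0-3 days (log2 change -4.79, and -5.48 without the 20-month library numbered 2). Among 23 tested glycolytic genes 2 rose and 9 fell, including Hk2, hexokinase 2, at 47.5 ± 6.68 CPM at 20 months and 90.2 ± 9.83 CPM at 0-3 days, and the lactate exporter Slc16a3, at 4.098 ± 1.204 CPM at 20 months and 22.6 ± 7.47 CPM at 0-3 days.

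Regulators of lineage changed in both directions. Of 23 tested cardiac transcription factors 4 rose and 9 fell, against 26.1% higher and 27.8% lower among all tested genes. Nkx2-5, a heart muscle factor, averaged 0.0636 ± 0.1101 CPM at 20 months and 3.698 ± 0.522 CPM at 0-3 days (log2 change -5.76, -9.23 without the 20-month library numbered 2 and -5.17 without the 20-month library numbered 3), and Gata5 had no count at 20 months against 1.91, 2.66 and 1.45 CPM at 0-3 days. Gata4 and Tbx20, which cardiac fibroblasts also express, were not called, at 145 ± 7.09 CPM at 20 months and 164 ± 4.61 CPM at 0-3 days, and 102 ± 18.3 CPM at 20 months and 116 ± 20.6 CPM at 0-3 days. Prrx2, a mesenchymal factor, rose, with 23.4, 31.9 and 25.3 CPM at 20 months, against 14.1, 13.4 and 10.4 CPM at 0-3 days. Immediate early genes rose in 3 and fell in 5 of 22 cases, targets of the Hippo pathway rose in 8 and fell in 4 of 26, and integrins and cadherins rose in 6 and fell in 10 of 25. Itga11, the collagen-binding integrin chain of fibroblasts, had 215, 123 and 270.2 CPM at 20 months, against 60.96, 51.97 and 67.1 CPM at 0-3 days. Itga11 changed by 1.76 ± 0.31 on the log2 scale (SE, adjusted p = 9.69e-05). Itga4, a fibronectin- and VCAM-binding chain, averaged 5.52 ± 1.32 CPM at 20 months and 36.4 ± 12.6 CPM at 0-3 days.

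Genes were ranked by size of change among called genes with a mean log2 CPM of at least 1 over the 24 libraries and groups that did not overlap. Those furthest up at 20 months included several not in a pathway above. Gsta5, a glutathione transferase with close copies, was 363-fold higher (95% counting interval 124 to 1763). Adh7, an alcohol dehydrogenase that handles retinol, had 10.1, 9.11 and 11.96 CPM at 20 months, against 0, 0.0484 and 0.338 CPM at 0-3 days, log2 change 6.304 ± 0.94. The change was 5.71 without the 0-3 day library numbered 1 and 8.47 without the 0-3 day library numbered 3. Foxa2, a pioneer factor of endoderm, had 16.1, 16.9 and 23.7 CPM at 20 months, against 0.133, 0.339 and 0.483 CPM at 0-3 days, log2 change 5.88 ± 0.59. Trh, the precursor of thyrotropin-releasing hormone, had 15.3, 41.1 and 26.9 CPM at 20 months, against 0.266, 0.629 and 0.628 CPM at 0-3 days, log2 change 5.77 ± 0.57. Further oxidising enzymes were among them, Aox1, aldehyde oxidase, at 34.4 ± 6.89 CPM at 20 months and 0.657 ± 0.463 CPM at 0-3 days, and Aldh3a1, aldehyde dehydrogenase, at 50.4 ± 35.1 CPM at 20 months and 1.29 ± 0.3204 CPM at 0-3 days; the log2 change of Aldh3a1, 5.28, was 4.54 without the 20-month library numbered 2. Gjb2, the gap junction protein connexin 26, had 7.33, 18.5 and 2.25 CPM at 20 months, against 0.355, 0.387 and 0.241 CPM at 0-3 days, and its log2 change of 4.81 was 3.83 without the 20-month library numbered 2. Kirrel3, Ddit4l2, Plekhg4 and Colec11 completed the first 12 with Igfbp5, at log2 changes of 4.88, 4.78, 4.69 and 4.66. The 12 furthest down by this ranking were muscle genes but for 2; Myl2, a muscle gene with a change of similar size, had a mean level under that minimum. Besides Igf2bp1, Reg3b, a secreted lectin that injured heart muscle can make, had no count at 20 months against 37.9, 32.9 and 23.8 CPM at 0-3 days. Csrp3 and Tnni1, proteins of the sarcomere, were 1191-fold lower (95% counting interval 213 to 47077) and 859-fold lower (95% counting interval 154 to 33973), and Srl and Unc45b had no count at 20 months.

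The same ages were also compared in 33 mM glucose. There 7634 of 13806 genes (55.3%) were called, 3748 (27.1%) higher and 3886 (28.1%) lower, and 6622 genes were called in the same direction in both media. These libraries are not independent of the first: same-numbered cultures of one age deviated together across media. The interferon-stimulated list had 0 higher and 30 lower at 33 mM glucose, the mitosis list 0 higher and 29 lower, the lysosome list 24 higher and 4 lower and the cartilage and bone list 10 higher and 2 lower. The difference of the age effect between media was first tested without pairing same-numbered cultures across media, so differences they shared stayed in the spread. The labels do not state such pairing. No gene passed an adjusted p of 0.05 (0.0% of 13806), 140 had an unadjusted p under 0.05, and the smallest adjusted p was 1; DESeq2 called 0 as well, with 139 at an unadjusted p under 0.05. With the culture number within age as a block, 15 genes passed and 910 had an unadjusted p under 0.05. Among these 15 were genes of cholesterol and fatty acid synthesis whose age effect was more positive in high glucose: Insig1, a feedback regulator of sterol synthesis, by 0.49 ± 0.09 (SE) on the log2 scale, Fasn, fatty acid synthase, by 0.38 ± 0.07, Dhcr7 by 0.47 ± 0.09, Idi1 by 0.41 ± 0.08 and Cyp51 by 0.398 ± 0.08. In 5.5 mM glucose, Insig1 had 113, 172 and 171 CPM at 20 months, against 204, 159.5 and 128 CPM at 0-3 days, and in 33 mM glucose 157, 247 and 201 CPM at 20 months, against 206, 137 and 124 CPM at 0-3 days. The list as a whole had 1 gene higher and 7 lower of 26 tested in 5.5 mM glucose, and 6 higher and 4 lower in 33 mM glucose. The most negative differences were Ptges, prostaglandin E synthase, at -1.72 ± 0.28, Orc1, of the origin complex, at -1.003 ± 0.19, and Tiparp and Ackr3, at -0.87 ± 0.12 and -0.87 ± 0.15.

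**Figure D4:**
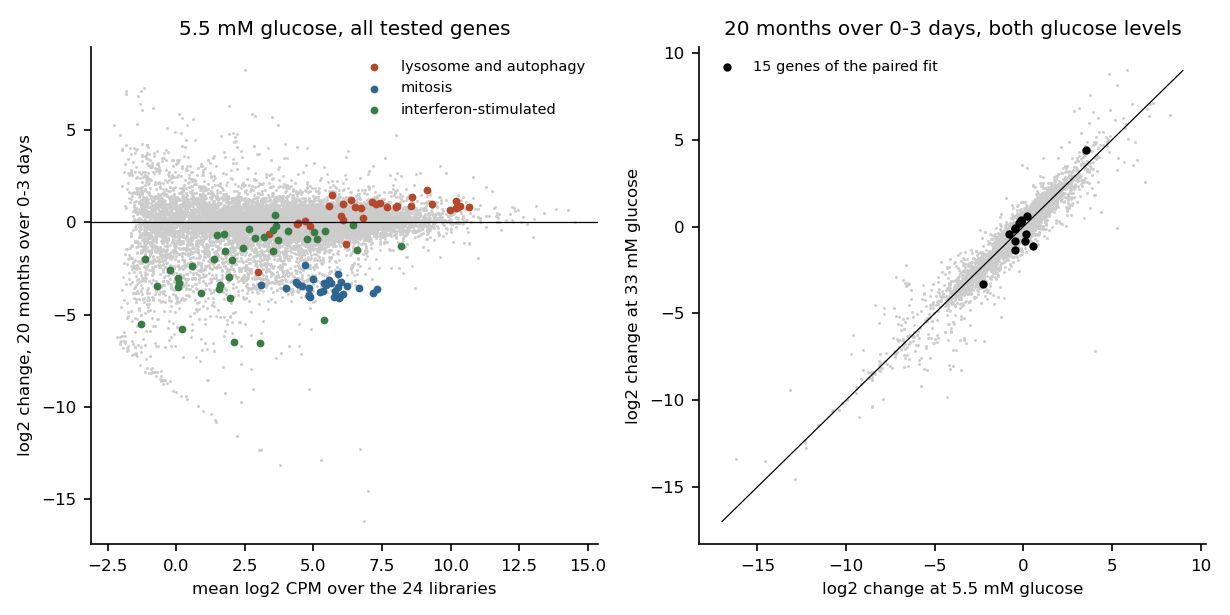
Left, log2 change at 20 months over 0-3 days in 5.5 mM glucose against mean log2 CPM over the 24 libraries for 13806 genes, with 3 lists coloured; mitosis genes lie between -4.12 and -2.32. Right, the same change in 33 mM against 5.5 mM glucose, with the line of equal change and the 15 genes of the paired fit in black, of which Ptges, at a difference of -1.72, lies furthest from that line.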

How the data were processed

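The deposited table gives, per gene, raw counts and FPKM for each of 24 libraries, made by the authors; HISAT2 2.0.4, StringTie 1.3.0, edgeR and genome build Rnor_6.0 are named in the submitters' processing notes. The counter, its strand setting and any filters are not given in the sources used here. The authors' deposited counts were used for all tests; the FPKM values, also the authors' deposited values, were not used. No column of other samples was present. Genes were kept by edgeR's filterByExpr (at least 10 counts, 15 in all), scaled by TMM and tested with edgeR 4.0.16 (R 4.3.3), robust quasi-likelihood with 8 groups of 3 libraries, and Benjamini-Hochberg adjustment; the SE is the absolute log2 change over the square root of F. DESeq2 1.42.0, other scaling, no filter, the 6 libraries alone, replicate blocks and leaving out each library were alternatives. Scripts were tested on simulated data.

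Members and gene lists were chosen with earlier results of these data known, so list counts are descriptions. Named were the 12 largest non-overlapping calls per direction, up to 5 calls per direction and list with the smallest adjusted p, 20 preset genes, and members that were not called; other called genes (Cdc20, Cdk1, Dhx58, Ifih1, Ifit3, Igf2r, Irf9, Mgp, Myl2, Nqo1, Oas1a, Orc1, Phlda2, Sox9, Stat2 and Wnt11, and those of the fit paired across media) were chosen after their values were seen. Some genes that the rule names are not reported here. Counting intervals and the floor of 3 counts cover counting error only. The labels do not say whether replicate numbers pair cultures across glucose levels of one age. Pairing was inferred from deviations from group means, which correlated at 0.282, 0.201 and 0.316 for same numbers at 0-3 days. At 20 months they correlated at 0.423, 0.494 and 0.414. All correlations of different numbers were negative, which follows in part from taking deviations within groups of 3 and is not further support.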

Additional observations from a re-analysis of the deposited data

How the results depend on the processing

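The count of 7438 genes called was 7440 with RLE size factors, 7329 with no filter, 7496 with DESeq2, 7460 without the robust prior, 7537 without both 3-4 week libraries numbered 1, 7337 with the 6 libraries alone, and 6492 to 7020 when each library of the comparison was left out. In 33 mM glucose the count of 7634 ranged from 6715 to 7845. Across the ages compared, same-numbered libraries correlated weakly, at 0.112, 0.0382 and 0.116, though each library correlated best with its own number. The labels do not say whether numbers pair cultures across ages. The replicate block gave 7597 calls, or 7493 with the 6 libraries alone. For the difference between media every setting gave 0 calls except the replicate block within age, which gave 15. That was the only setting that paired cultures across media within each age, so the 0 of the others does not show equal age effects. The replicate block with 24 libraries ended the calls of Irgm and Sod2 (adjusted p = 0.0511 and 0.0588) and called Mt-nd6 (0.0335). Of the counts of called members per list, 1059 stayed within 1.5 times the value given and 61 moved, over all settings. One cartilage and bone gene was called lower in 4 settings, DESeq2 among them. Of 229 named genes tested, 9 lost their call in at least 1 setting (Ifih1, Igf2r, Il33, Irgm, Mmp9, Phlda2, Sod2, Tfeb and Tlr4), 8 gained one (Cd74, Csf1, Hmox1, Il6, Lox, Mt-nd6, Tgfb1 and Txnrd1), and none turned round. Depth limits genes with few counts, such as those without a count at 20 months.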
